A study of Equus caballus with 4 samples.

Results

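Insulin-like growth factors 1 and 2 (IGF1 and IGF2) were followed in equine sarcoids, the locally invasive fibroblastic skin tumours of horses, and in skin of the same animals taken away from the tumour. The members were all array probes designed on a RefSeq transcript of either gene, which gave 3 of 43603 probes. IGF1 had 1 probe (A_69_P001236, on NM_001082498), and IGF2 had 2 (A_69_P001031 and A_69_P006586, both on NM_001114539). Each of 4 horses gave 1 sarcoid, labelled with Cy3, and 1 sample of distant skin, labelled with Cy5, and the pair was hybridised to 1 array. No treatment, age or tumour type is given in the sources used here, and sarcoid was Cy3 on every array (0 dye swaps), so the dye and the tissue cannot be told apart for any single probe. The descriptions of 3 samples speak of stem cells, against the tissue fields, which were followed.

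IGF1 and IGF2 are secreted peptides related to insulin. Both bind the IGF1 receptor, a tyrosine kinase that drives growth and survival of fibroblasts and keratinocytes, while the IGF2 receptor mainly takes IGF2 up for degradation, and a family of binding proteins holds both ligands in tissue fluid. In skin, IGF1 is made largely by dermal fibroblasts and acts on the epidermis above them. IGF2 is an imprinted fetal growth factor, next to the noncoding RNA H19.

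Neither ligand passed the test between sarcoid and skin at an adjusted p under 0.05, and their mean log2 ratios lay on opposite sides of 0. The log2 ratio of sarcoid over skin was above 0 in 4 of 4 horses for IGF1, with a mean of 1.03 ± 0.91 (SD, n = 4), or 2.05-fold. For IGF2 it was below 0 in 3 horses and above 0 in the other, horse 2, with a mean of -0.44 ± 0.97 (SD, n = 4), or 1.36-fold higher in skin. In the limma fit over 19607 targets, 15.7% were called in either direction, 5.84% higher and 9.9% lower in sarcoid; among the members 0 of 2 genes were called. Of 33864 probes 18.2% were called, against 0 of the 3 member probes. At an unadjusted p under 0.05 the limma fit held 31.3% of the targets, IGF1 among them and IGF2 not. With the background model fitted before outlier spots were left out, the share called was 1.22%, so this yardstick itself depends on the processing. A target is here a gene symbol (845 targets) or else the identifier in the file, represented by its brightest probe; for 1237 targets that identifier is the probe's own name, so probes of 1 unnamed gene can count as several targets.

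All 3 probes were well above background in both channels on all 4 arrays, and none of their spots was marked as an outlier or saturated. Per array and channel, 67.2% to 80.7% of all probe spots passed that mark, and 4 arrays limit the precision of every value. The labelled tissues were set against marker genes. All 3 measured fibroblast markers (DCN, LUM and VIM) were called higher in sarcoid, with means from 1.58 to 4.24, and the only measured keratinocyte marker, KRT15, was lower at -5.12. KRT15 and LUM passed in all 14 alternatives. On median centring without loess DCN and VIM did not (limma adjusted p = 0.0686 and 0.104). VIM also did not pass with the background model fitted before outlier spots were left out (limma adjusted p = 0.0638) or with outlier spots kept (0.0641). In these bulk samples fewer cells of a type and less RNA per cell cannot be told apart.

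The IGF1 spots were modest in skin and brighter in sarcoid relative to their arrays. In the skin channel the median spot signal of IGF1 was 149, 223, 180 and 332 in horses 1 to 4, over local backgrounds of 45 to 50. In the sarcoid channel it was 310, 727, 206 and 229, over backgrounds of 21 to 24. The spot of horse 4 was thus dimmer in sarcoid than in skin before normalization. Its background-subtracted log2 ratio was -0.46, on an array whose median over well-measured probes was -0.999, so it lay 0.54 above its array. The same distance was 0.99, 2.51 and 0.56 in horses 1 to 3.

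After background correction and loess, the IGF1 log2 ratios were 0.76, 2.37, 0.34 and 0.66 in horses 1 to 4. Horse 2 stood well above the other horses, which lay within a narrow band. The 95% interval of the mean, from limma with variances moderated over all targets, ran from 0.14 to 1.93, or from 1.10-fold to 3.80-fold. It is not set by the SD of these 4 horses alone. The adjusted p was 0.117 in limma. Ratios above 0 on all 4 arrays were found for 17.8% of the targets, so the shared sign of IGF1 is no rarity on these arrays. Without horse 2 the mean was 0.59 (limma adjusted p = 0.119).

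Brought to a common scale across arrays, the IGF1 log2 level spanned 7.28 to 7.88 in skin and 7.63 to 9.81 in sarcoid. The SD over horses was 0.26 in skin and 0.93 in sarcoid, so on this scale the variation between horses lay mainly on the sarcoid side. These levels follow the offset of 50 and loess. The spot signals before them spanned 149 to 332 in skin and 206 to 727 in sarcoid, ranges less unlike than those SDs. The levels of the tissues overlapped: horse 3's sarcoid, at 7.63, was below horse 4's skin, at 7.88. The order of the sarcoids was horse 2, horse 4, horse 1 and horse 3.

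**Figure D1:**
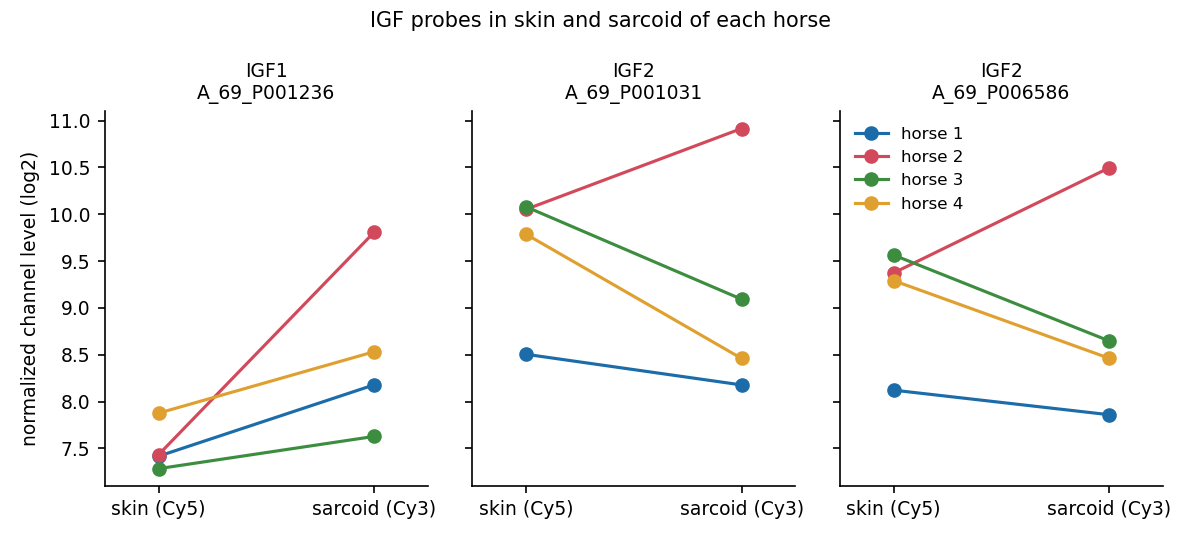
Normalized log2 channel level of each probe (y axis) in skin and sarcoid (x axis), with 1 line per horse. The IGF1 line climbs in every horse, from 7.43 to 9.81 in horse 2, while the IGF2 lines fall in horses 1, 3 and 4 and climb in horse 2.

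IGF2 varied between horses in both tissues. With probe A_69_P001031, the brighter of the pair, the median spot signal was 324, 1382, 1328 and 1349 in skin of horses 1 to 4. In the sarcoids it was 303, 1394, 519.5 and 231. Horse 1's skin was the low one among the skins and horse 2's sarcoid the high one among the sarcoids. On the common log2 scale this probe spanned 8.51 to 10.08 in skin (SD 0.75) and 8.18 to 10.92 in sarcoid (SD 1.23), and the tissues overlapped.

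The normalized log2 ratios of that probe were -0.33, 0.86, -0.99 and -1.33 in horses 1 to 4. Horse 2 lay above 0 and the other horses below it. The limma 95% interval of the mean was -1.39 to 0.50, which spans from 2.61-fold higher in skin to 1.41-fold higher in sarcoid (limma adjusted p = 0.478). The interval holds 0 and sizeable differences either way, so these arrays do not show that IGF2 is equal in the tissues. Leaving out horse 2 gave a mean of -0.88 (limma adjusted p = 0.113), leaving out horse 3 -0.26 (0.751) and leaving out horse 4 -0.15 (0.835).

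The other IGF2 probe, A_69_P006586, had the same signs in each horse but a mean nearer 0. Its spots read 248, 865, 922 and 938.5 in skin and 251, 1079, 388.5 and 224.5 in sarcoid. Its log2 ratios were -0.26, 1.12, -0.92 and -0.83, with a mean of -0.22 ± 0.94 (SD, n = 4; limma adjusted p = 0.72 over all probes), and the mean was 0.010 without horse 3 and -0.019 without horse 4. The ratios of the probes lay 0.065, 0.26, 0.070 and 0.50 apart in horses 1 to 4. A_69_P001031 was the lower one in 4 of 4 horses, by a mean of 0.22 (exact sign-flip permutation, two-sided p = 0.125, the smallest that 4 horses allow). These gaps were small beside the spread between horses.

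Over all 4 horses each ligand varied widely, and with the main processing the gap between them varied less. The log2 ratio of IGF2 (A_69_P001031) minus that of IGF1 was -1.09, -1.51, -1.33 and -1.98 in horses 1 to 4. IGF2 was the lower one in 4 of 4 horses, with a mean gap of -1.48 ± 0.38 (SD, n = 4), or 2.79-fold. With the other IGF2 probe the gap was -1.02, -1.25, -1.26 and -1.48, with a mean of -1.26 ± 0.19. The exact two-sided sign-flip permutation p was 0.125 for each, the smallest p that 4 horses can give, so this test cannot pass 0.05 here. Over the 3 contrasts between member probes tested this way, the Benjamini-Hochberg adjusted p was also 0.125. The smaller spread of the gap rested on horse 2. Without that horse its SD was 0.46, above that of IGF1 (0.22) and near that of IGF2 (0.51). With the background model fitted before the outlier spots were left out, the gap was -0.94 ± 0.78 (SD, n = 4) and still below 0 in 4 of 4 horses, but it then varied more than IGF1 did (SD 0.45) and about as much as IGF2 (SD 0.81). The gap compares ratios within an array and says nothing of which ligand was more abundant, since levels of different probes cannot be set against each other.

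**Figure D2:**
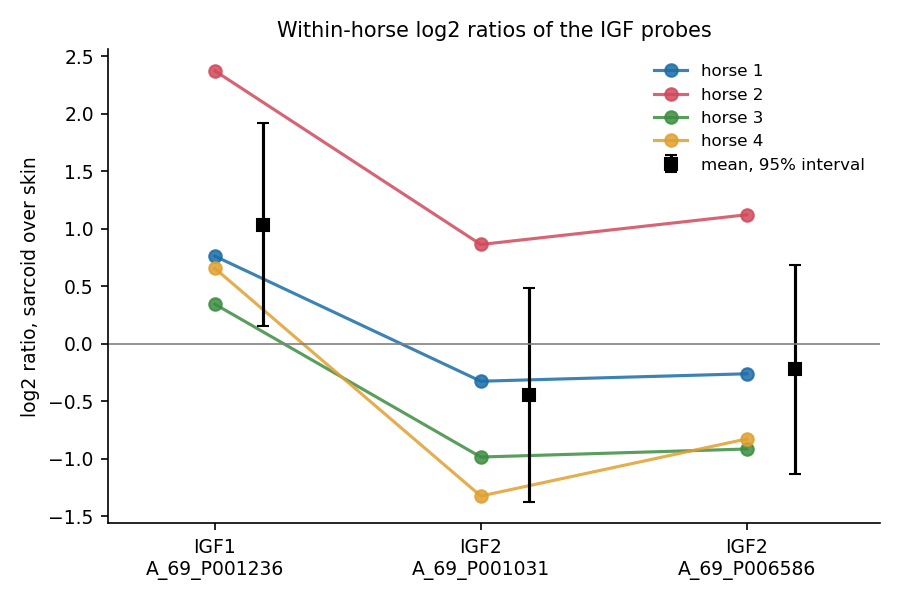
Log2 ratio of sarcoid over skin (y axis) for the 3 probes (x axis), with 1 coloured line per horse. Black squares with bars are the mean over 4 horses and its limma 95% interval, with the variance moderated over all probes. Every line steps down from IGF1 to both IGF2 probes, and horse 2 lies above the other horses at each probe.

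Both members varied between horses more than most targets did. The SD of the log2 ratio was at least as large as that of IGF1 in 7.16% of the targets and at least as large as that of IGF2 in 6.21%; the median SD was 0.34. The mean of IGF1 was in the upper tail, with 4.74% of the targets as high or higher. For IGF2, 17.2% of the targets had a mean as low or lower. For IGF1 the large SD rests on horse 2: it was 0.22 without that horse, and 0.45 on all 4 arrays with the background model fitted before outlier spots were left out. The SD of IGF2 was also smaller without horse 2, at 0.51. The median target stood at a mean of 0.0035.

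**Figure D3:**
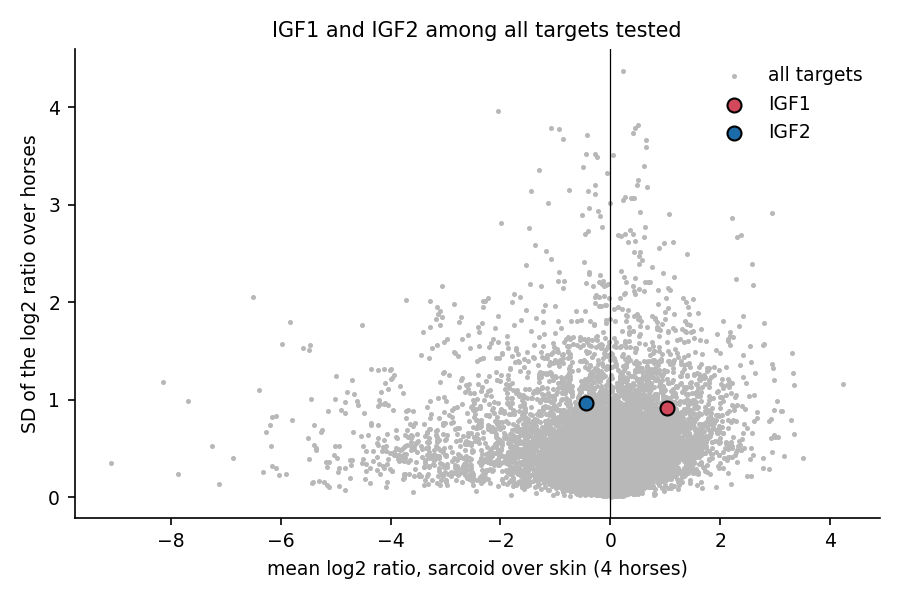
Mean log2 ratio of sarcoid over skin (x axis) against its SD over 4 horses (y axis) for 19607 targets, in grey, with IGF1 and IGF2 as coloured points. IGF1 (mean 1.03, SD 0.91) and IGF2 (mean -0.44, SD 0.97) lie on opposite sides of 0 and above the bulk of the targets in SD.

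Few other genes of the IGF axis could be read by name. Of 41 listed receptors, binding proteins, adaptors and neighbours, 4 were on the array under a symbol and 3 were measured. The list was called 0 times by limma, in either direction, against 15.7% of all targets. At an unadjusted p under 0.05 stood 1 of the 3, against 31.3% of all targets, and the median log2 ratio was 0.060. The unnamed remainder, which includes the IGF1 receptor and all listed IGF binding proteins, was not analysed here. Growth hormone (GH1), which induces IGF1 in the liver, was well above background on 2 sarcoid arrays and 1 skin array and did not pass the filter; without the filter its mean was 0.29 (limma adjusted p = 0.139).

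H19 was the measured one of these with an unadjusted p under 0.05. Its brighter probe had log2 ratios of 0.80, 1.58, 1.26 and -0.23 in horses 1 to 4, with a mean of 0.85 ± 0.79 (SD, n = 4; limma adjusted p = 0.135). Horse 4 was the low one, and without it the mean was 1.21 (limma adjusted p = 0.0361). The other H19 probe did not follow, at 0.014, 0.14, -0.41 and 0.39. Beside H19's brighter probe, its imprinted neighbour IGF2 was lower in every horse (-0.33, 0.86, -0.99 and -1.33), and both had their highest ratio in horse 2.

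The signalling genes on the list lay near 0. GRB2, the adaptor that links activated receptors to RAS, was at 0.11, 0.22, 0.21 and -0.29 in horses 1 to 4. SOCS3, a feedback inhibitor of cytokine signalling, was at -0.15, 0.076, -0.15 and -0.046. Their spread over all 4 horses (SD 0.24 and 0.11) was well under that of either ligand. For IGF1 this rested on horse 2, without which its SD was 0.22. The 95% intervals of GRB2 and SOCS3 were -0.28 to 0.41 and -0.35 to 0.21.

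Among 7 other growth factors that could be measured by name, 1 was called higher and 1 lower, where 5.84% and 9.9% of all targets were, with a median of 0.044. FGF7, the fibroblast-made growth factor of keratinocytes, rose, with log2 ratios of 2.21, 1.87, 0.56 and 1.32 in horses 1 to 4 and a mean of 1.49 ± 0.72 (SD, n = 4; limma adjusted p = 0.0267). Its call was lost in 7 of 14 alternatives. Among them were horses 1, 2 and 4 left out in turn (limma adjusted p = 0.0916, 0.098 and 0.081), median centring (0.0607) and separate channels without a block (0.0793). The others were the background model fitted before outlier spots were left out (0.174) and outlier spots kept (0.175). Its mean was the closest on the list to that of IGF1, but its highest horse was horse 1 and not horse 2. BDNF, a neurotrophin, fell, at a mean of -0.92 ± 0.49 (SD, n = 4; limma adjusted p = 0.0414), and cleared the background mark on 2 of the 4 sarcoids. The call of BDNF was lost in 8 of 14 alternatives, among them each horse left out (limma adjusted p = 0.0539, 0.133, 0.0849 and 0.107 without horses 1 to 4), and its mean ran from -0.34, with the background model fitted before outlier spots were left out, to -2.26 with the deposited log ratio (limma adjusted p = 0.0090). TGFB1 (0.54), FGF2 (0.16), CSF3 (0.044), VEGFA (-0.26) and KITLG (-0.30) did not pass, and CSF2 and FGF1 were too dim to be tested.

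**Figure D4:**
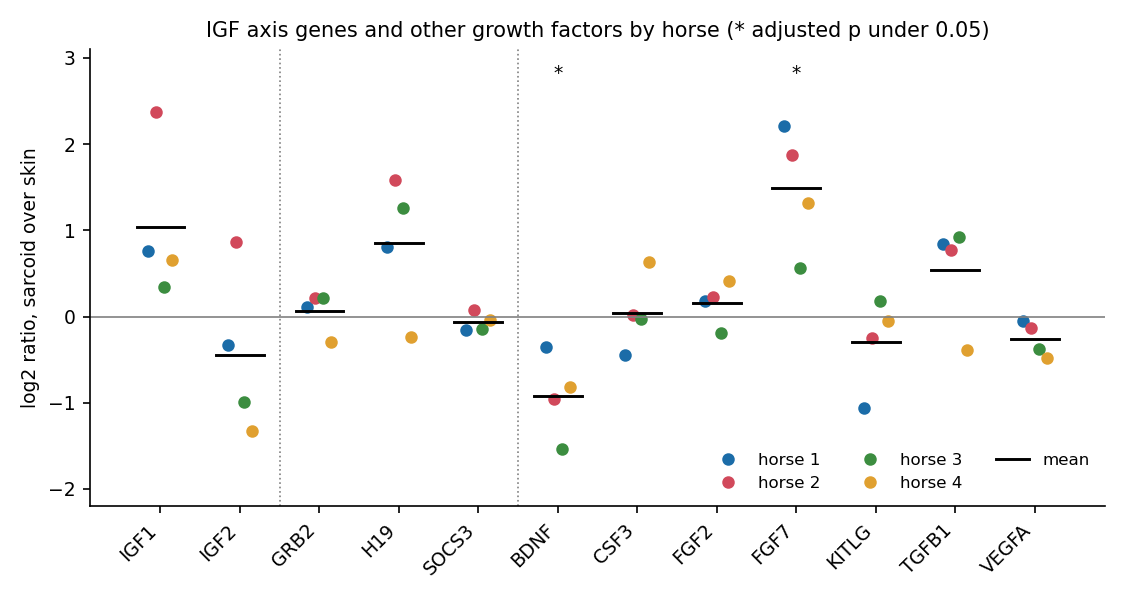
Log2 ratio of sarcoid over skin (y axis) in each of 4 horses (coloured points, with the mean as a bar) for IGF1 and IGF2, the measured IGF axis genes and other growth factors (x axis). Stars mark FGF7 and BDNF, the genes shown with an adjusted p under 0.05; IGF1 and IGF2 have wide spreads and no star.

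Horse 2, where both ligands had their highest ratio, was compared with the others in the cell type markers. The fibroblast marker median was 2.52, 1.39, 1.80 and 1.77 in horses 1 to 4, so it was lowest in horse 2. The endothelial median, over PECAM1 and VWF, was 0.23, 1.94, -1.90 and 0.44, highest in horse 2 and lowest in horse 3. IGF1 likewise had its highest ratio in horse 2 and its lowest in horse 3. IGF2 was also highest in horse 2, but its lowest ratio was in horse 4 (-1.33, against -0.99 in horse 3). The macrophage median, over CD14, CD68 and CSF1R, was 1.99, 1.14, 0.052 and 0.90, with its low in horse 3 too, and the T cell marker CD2 was at 1.12, 1.19, -0.13 and 0.24. None of the endothelial markers was called, 1 of the 3 macrophage markers was (CSF1R, lost in 6 of 14 alternatives), and the part of these cells in the IGF values was not tested. Of 4 skeletal muscle markers 1 was called, lower (MB, lost in 5 of 14 alternatives), and no adipocyte marker passed the filter. The sweat gland marker LATH was called lower, at -6.33, in all 14 alternatives too. Both melanocyte markers were called lower, PMEL at -2.16 and TYRP1 with no size, being dim on every sarcoid array. The other PMEL probe had a mean of -0.99. The calls of both markers were lost with outlier spots kept or left out after the background fit. The smooth muscle marker TAGLN was at 0.92, 0.18, -0.88 and -0.64 in horses 1 to 4 and was not called.

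The targets whose 4 ratios lay nearest to those of each ligand were sought among 843 other targets with a symbol. Nearest to IGF1 were COL2A1, a collagen of cartilage (Euclidean distance over 4 horses 0.98), RHOH, a GTPase of blood cells (1.10), and the chemokine CCL5 (1.12). None of them reached the value of IGF1 in horse 2 (2.37), with 1.65, 1.42 and 1.43 there. Among the nearest to IGF2 were EPAS1, an oxygen-regulated transcription factor (0.72), and MHCB3 (0.91). EPAS1 had log2 ratios of 0.13, 1.35, -1.26 and -1.38 in horses 1 to 4, high in horse 2 and low in horses 3 and 4 like IGF2. Likeness over 4 horses describes these arrays only.

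The mean of IGF1 moved by over 1.5 times, or changed its call, under a few of the alternatives. With the log ratio that the scanner software deposited, the IGF1 log2 ratios were 1.30, 3.07, 0.97 and 1.08 in horses 1 to 4, the mean was 1.60 and the limma adjusted p 0.0355. That was the only alternative of 14 in which IGF1 was called. With the background model fitted before the outlier spots were left out, the IGF1 mean was 0.63 (limma adjusted p = 0.219), horse 2 was at 1.09 in place of 2.37, and horse 3 was at 0.023. IGF1 was above 0 in every horse in all 9 settings that used 4 arrays and gave a ratio per horse, and IGF2 was above 0 in horse 2 alone in all 9. The filter settings could not move the ratios of either gene, and averaging probes could not move IGF1, which has 1 probe. Outlier spots kept gave nearly the same ratios as outlier spots left out after the background fit, so the 9 settings are not independent.

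**Figure D5:**
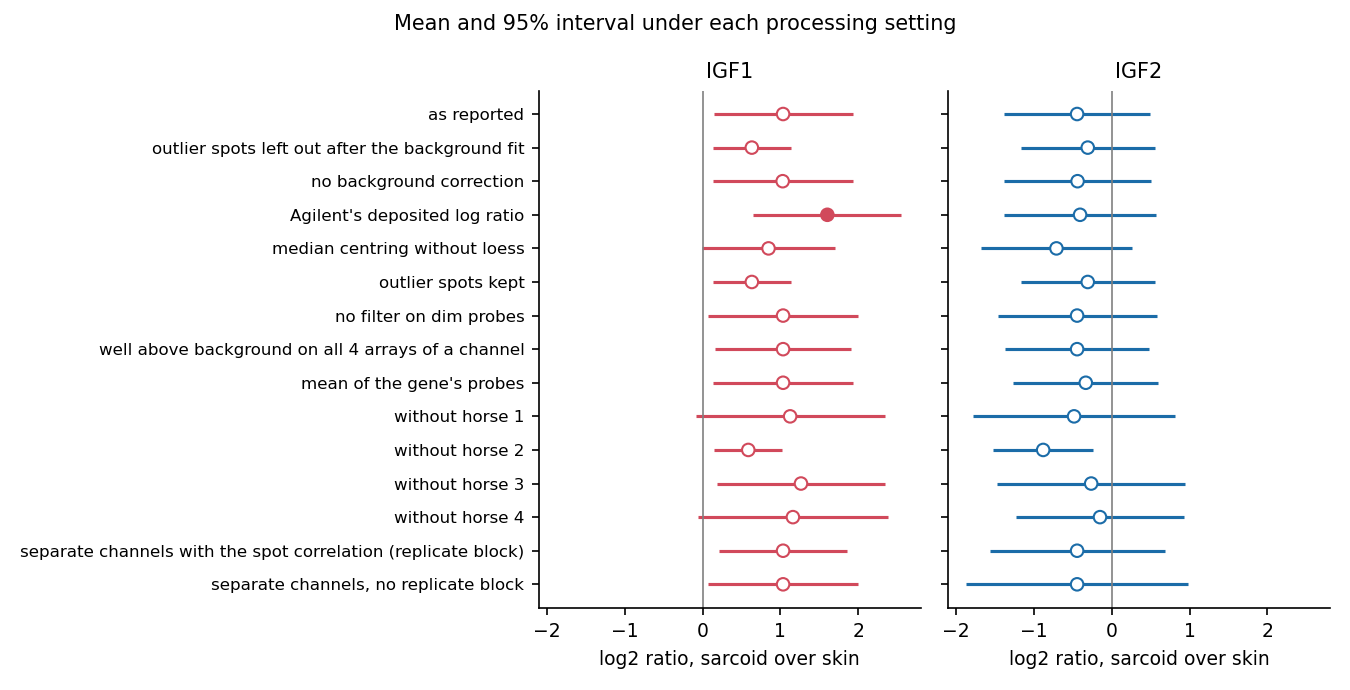
Mean log2 ratio of sarcoid over skin (x axis) with its limma 95% interval for IGF1 and IGF2 under each processing setting (y axis). A filled point has an adjusted p under 0.05. IGF1 ranges from 0.59 to 1.60 and is filled once, with the deposited log ratio, and IGF2 ranges from -0.88 to -0.15 and is never filled.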

How the data were processed

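Per the labels, 100 ng of RNA per sample was amplified and labelled for 2-colour Agilent arrays. The deposited scanner files hold linear intensity values of each spot and its surroundings, and processed intensity values that the software had already corrected for background and dye, per the file headers. The submitters' processing notes name Agilent Feature Extraction 11.5.1.1. The deposited log10 ratio, Cy5 over Cy3, was the same in the authors' value table (largest difference 0), whose column medians were 0, -0.0026, -0.012 and 0 for horses 1 to 4. Spot flags were used as deposited.

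Spots marked as feature or background outliers were dropped, median signals were corrected with normexp (offset 50), and loess was run within arrays, with no weight on control spots (limma 3.58.1, R 4.3.3). A probe had to be well above background in 3 of 4 sarcoids or 3 of 4 skins. The log2 ratios of sarcoid over skin entered lmFit and eBayes, with a two-sided test of a mean of 0 and Benjamini-Hochberg adjustment over all targets (or all probes). Aquantile put the channel levels on 1 scale. Of 43603 probes, 2332 could be named through a RefSeq table of the horse; it uses another build than the arrays, so no coordinates are given. Named genes were the members, measured genes of the lists and the 3 nearest targets of each member, of which 1 is not reported here. The members, lists and the order of outlier removal were chosen with earlier results of these data known. The limma fit alone was run on simulated normal ratios with known shifts. That run did not cover the background, outlier or normalization steps, so it does not bear on how calls shift with the processing. Alternatives covered background, normalization, outliers, filters, probe choice, channel model and each horse left out.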

Additional observations from a re-analysis of the deposited data

How the results depend on the processing

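With outlier spots left out after the background fit 93 targets were higher and 147 lower, and with outlier spots kept 94 and 147, against 1146 and 1941. The deposited log ratio gave 1882 higher and 2023 lower (48.2% of calls higher, against 37.1%), 1 member probe called and 1 IGF axis gene called, both of them IGF1 at 1.60. Median centring gave 614 higher and 2678 lower (18.7% higher). Leaving out each horse gave 377 to 796 higher, 1054 to 1399 lower and 0 to 1 IGF axis genes (H19, without horse 4). The mean of IGF1 then ran from 0.59 to 1.26, of IGF2 from -0.88 to -0.15 and of their gap from -1.61 to -1.31. Probe A_69_P006586 of IGF2 ran from -0.67 to 0.010, the last without horse 3, and was never called. The cause of these shifts was not tested. The pairing by horse is inside each ratio; with separate channels the limma adjusted p of IGF1 was 0.0777 with the spot correlation as replicate block and 0.158 without a block, and those of IGF2 were 0.58 and 0.722. The slide as a block was not run, since the arrays share 1 slide. All 14 alternatives kept the sign of IGF1 and of IGF2, and all 12 that gave their gap kept its sign. The changes of filter and of channel model left the means of both genes as they were, as did averaging probes for IGF1. Those alternatives could not have changed these signs.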
